A study of Mus musculus with 3 samples.

Results

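The subject of this report is a set of 9 genes of the tumor necrosis factor (TNF) receptor and ligand families, chosen by name from a list and not by a threshold on their values: the receptors Tnfrsf4 (OX40), Tnfrsf18 (GITR), Tnfrsf9 (4-1BB), Cd27, Tnfrsf1b (TNFR2) and Cd40, and the ligands Cd40lg, Tnfsf8 (CD30 ligand) and Tnfsf9 (4-1BB ligand). They are 9 of the 32285 genes in the count tables, and every one of them had counts in each library. Their choice was made with earlier results of these data known. Their transcripts were counted in immune cells of 4T1 mammary tumors, a transplantable mouse model of triple-negative breast cancer, to ask how they differed after blockade of the p38 MAP kinase in the whole mouse or in the tumor cells alone.

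Receptors of this family sit on the cell surface and are engaged by trimeric ligands on neighboring cells. Those without a death domain recruit TRAF adaptors and switch on NF-kB and MAP kinase signaling. On T cells, OX40, GITR, 4-1BB and CD27 act as costimulators: CD27 is already present on naive cells, OX40 and 4-1BB are induced after antigen recognition, and regulatory T cells carry OX40, GITR, 4-1BB and TNFR2 constitutively or after activation. CD40 belongs to antigen-presenting cells and is engaged by CD40 ligand from activated CD4 T cells.

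All 3 groups were female BALB/c mice, 6 to 8 weeks old at implantation of 200000 4T1-luc cells into the mammary fat pad, with tumors taken on day 14. The vehicle group carried wild-type tumor cells and received DPBS from day 4 for 10 days. The p38i group carried the same cells and received LY2228820 (ralimetinib), an inhibitor of p38 alpha and beta, by daily gavage at 30 mg/kg over the same days. The p38KO group carried a single CRISPR-Cas9 clone, p38a-KO-H9, without p38 alpha, and was listed with no treatment. In p38KO the knockout was confined to the tumor cells, so the sorted immune cells were those of a wild-type host. The CD45 sort removed the cells in which the deletion could have been checked in these libraries. The paper reports that its knockout clones were checked by sequencing and made no p38 alpha protein. Clone, tumor growth and the missing DPBS cannot be told apart from the loss of p38 in that group.

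Each group was 1 single-cell library of live CD45+ cells, pooled from the tumors of 3 mice. With 1 library per group there is no replicate, so no test between groups was possible and no p-value is given. Every difference below compares those libraries, and the 95% intervals (exact Poisson for a level, exact conditional binomial for a ratio) cover counting error only. The libraries kept 3820 (vehicle), 4793 (p38i) and 3859 (p38KO) cells with 20795195, 24210342 and 24374173 UMIs and medians of 3162, 3038 and 3317 UMIs per cell. The median mitochondrial share was 0.671%, 0.968% and 2.10%, and pairs of libraries shared between 5 and 9 cell barcodes.

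Cells were placed in 8 classes by transcript gates that use none of the 9 genes: Cd8a T, Cd4 T and Foxp3 T cells (Cd3e with Foxp3, Cd8a or Cd4 and at most 1 C1qa, Fn1 or Csf3r transcript), NK cells (Ncr1), dendritic cells (DC, Flt3), macrophages (C1qa), monocytes (Fn1) and neutrophils (Csf3r). Cd8a T cells with a Cd4 or Foxp3 transcript, Cd4 T cells with Cd8a or Foxp3, and Foxp3 T cells with Cd8a were left out of those classes. The Cd8a T class held 259, 227 and 140 cells in vehicle, p38i and p38KO, the Cd4 T class 111, 135 and 160, and the Foxp3 T class 64, 106 and 85. NK cells numbered 117, 116 and 130, DC 36, 70 and 69, macrophages 170, 188 and 560, monocytes 317, 554 and 270, and neutrophils 1496, 1573 and 1345. Against markers outside the gates, all 6 T cell markers were detected in the Cd8a T class of each library, with summed levels of 5819, 5898 and 5963 CPM, and macrophage markers summed to 45.8, 42.9 and 176 CPM there. Between 73.9% and 99.4% of the gated cells of a class lay in unsupervised clusters of the same name. Any T cell cluster counted as a match for the Cd8a, Cd4 and Foxp3 T classes. Of the Cd8a T class, 85.7%, 81.5% and 78.6% lay in the cluster led by Cd8b1, Klrc1 and Cxcr6. CPM here is the UMIs of a gene, scaled to 1000000 UMIs of the class in that library. Neutrophil markers, which free RNA carries into other droplets, summed to 944, 981 and 178 CPM in Cd8a T cells and to 1556, 408 and 1415 CPM in Cd4 T cells, and their part in the results was not tested. The monocyte class was mixed by these lists: neutrophil markers (8433, 10938 and 4077 CPM) and macrophage markers (5249, 3976 and 5700 CPM) stood beside monocyte markers at 3668, 3208 and 4375 CPM. DC held monocyte markers at 1286, 1342 and 1041 CPM beside DC markers at 1437, 1789 and 1993 CPM. The part of this mixing in the monocyte and DC values was not tested.

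In the genome, 5 of the 9 genes lie on mouse chromosome 4 (GRCm38, GENCODE annotation). Tnfrsf4 (chr4:156013843-156016612) and Tnfrsf18 (chr4:156026164-156028895) lie 9551 bases apart on the plus strand, with 2 annotated genes between them. Tnfrsf9 (chr4:150914562-150946102) is on the plus strand, and Tnfrsf1b (chr4:145213463-145246870) and Tnfsf8 (chr4:63831308-63861347) are on the minus strand. Cd27 (chr6:125232622-125237010) is on the minus strand, and Cd40 (chr2:165055627-165072948), Cd40lg (chrX:57212143-57224042) and Tnfsf9 (chr17:57105325-57107757) are on the plus strand. Tnfrsf9 and Cd27 overlap a protein-coding neighbor on the other strand (Camta1 and Vamp1).

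The start-site windows of Tnfrsf4, Tnfrsf18 and Tnfrsf9 are shown because these 3 costimulators carried the largest differences in Cd8a T cells. RefSeq windows on GRCm38.p6 run from 250 bases before to 50 bases after the start, and 6 of the 9 genes had one. First and second number the 2 RefSeq starts of Tnfrsf9, and both windows lie inside the GENCODE gene, after its start at 150914562. The Tnfrsf4 window ends at 156013744, before the GENCODE start of that gene at 156013843. Capitals mark matches on either strand to the classical NF-kB consensus, AP-1 (TGANTCA) or NFAT (GGAAAA), where NF-kB matches can overlap each other or an NFAT match. These motifs occur in 8.46%, 7.81% and 23.4% of all 32851 windows.
Tnfrsf4, chr4:156013445-156013744, plus strand: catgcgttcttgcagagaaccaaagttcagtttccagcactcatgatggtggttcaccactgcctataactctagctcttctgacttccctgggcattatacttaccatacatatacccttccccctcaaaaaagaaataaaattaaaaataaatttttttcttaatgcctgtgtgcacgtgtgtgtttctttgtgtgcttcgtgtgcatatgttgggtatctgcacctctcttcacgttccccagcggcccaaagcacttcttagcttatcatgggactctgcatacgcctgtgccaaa
Tnfrsf18, chr4:156026072-156026371, plus strand: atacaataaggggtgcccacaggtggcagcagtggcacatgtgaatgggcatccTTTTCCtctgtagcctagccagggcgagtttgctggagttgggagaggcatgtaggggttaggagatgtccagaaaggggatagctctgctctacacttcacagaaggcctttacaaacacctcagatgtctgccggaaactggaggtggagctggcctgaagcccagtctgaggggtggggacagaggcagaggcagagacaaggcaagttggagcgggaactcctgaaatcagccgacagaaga
Tnfrsf9 first start, chr4:150919905-150920204, plus strand: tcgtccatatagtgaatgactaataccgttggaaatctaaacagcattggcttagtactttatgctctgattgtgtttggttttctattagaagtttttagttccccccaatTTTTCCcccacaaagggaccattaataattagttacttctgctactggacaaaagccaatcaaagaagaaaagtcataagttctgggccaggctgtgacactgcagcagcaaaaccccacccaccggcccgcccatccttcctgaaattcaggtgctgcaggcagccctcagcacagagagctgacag
Tnfrsf9 second start, chr4:150927749-150928048, plus strand: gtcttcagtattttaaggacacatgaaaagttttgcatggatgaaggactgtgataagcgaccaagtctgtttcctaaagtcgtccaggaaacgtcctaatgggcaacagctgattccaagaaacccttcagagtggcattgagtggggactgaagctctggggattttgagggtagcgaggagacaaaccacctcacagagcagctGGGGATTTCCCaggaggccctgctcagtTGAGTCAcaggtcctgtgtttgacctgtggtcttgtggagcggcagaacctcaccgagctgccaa
The second Tnfrsf9 window held 2 overlapping NF-kB matches, from 43 and 42 bases before the start, and an AP-1 match from 15 bases before it. The first Tnfrsf9 window and that of Tnfrsf18 each held 1 NFAT match, and the Tnfrsf4 window held none of the 3. A match is a string of letters and not a measured site.

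Across the 8 classes, a gene was taken as differing between 2 libraries when its log2 ratio of CPM was at least 0.5 in size, its 95% interval left out 0, and it had at least 20 counts over both. Counting error alone lets such an interval miss 0 for up to 5% of unchanged genes. In p38i, the 9 genes had 46 values with enough counts, of which 4 were higher (4.52% of all gene values in the 8 classes) and 1 was lower (3.47% of all gene values). In p38KO, 48 values had enough counts, of which 6 were higher (7.44% of all) and 12 lower (3.85% of all). Of the 12 lower values in p38KO, 6 were Tnfrsf9 and 5 were in Cd8a T cells, with Tnfrsf9 in Cd8a T cells counted in both. Both comparisons share the vehicle library, so their values are set side by side and are not independent of each other. Since the members were chosen with earlier results known, their counts beside those of all genes are a description only.

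**Figure D1:**
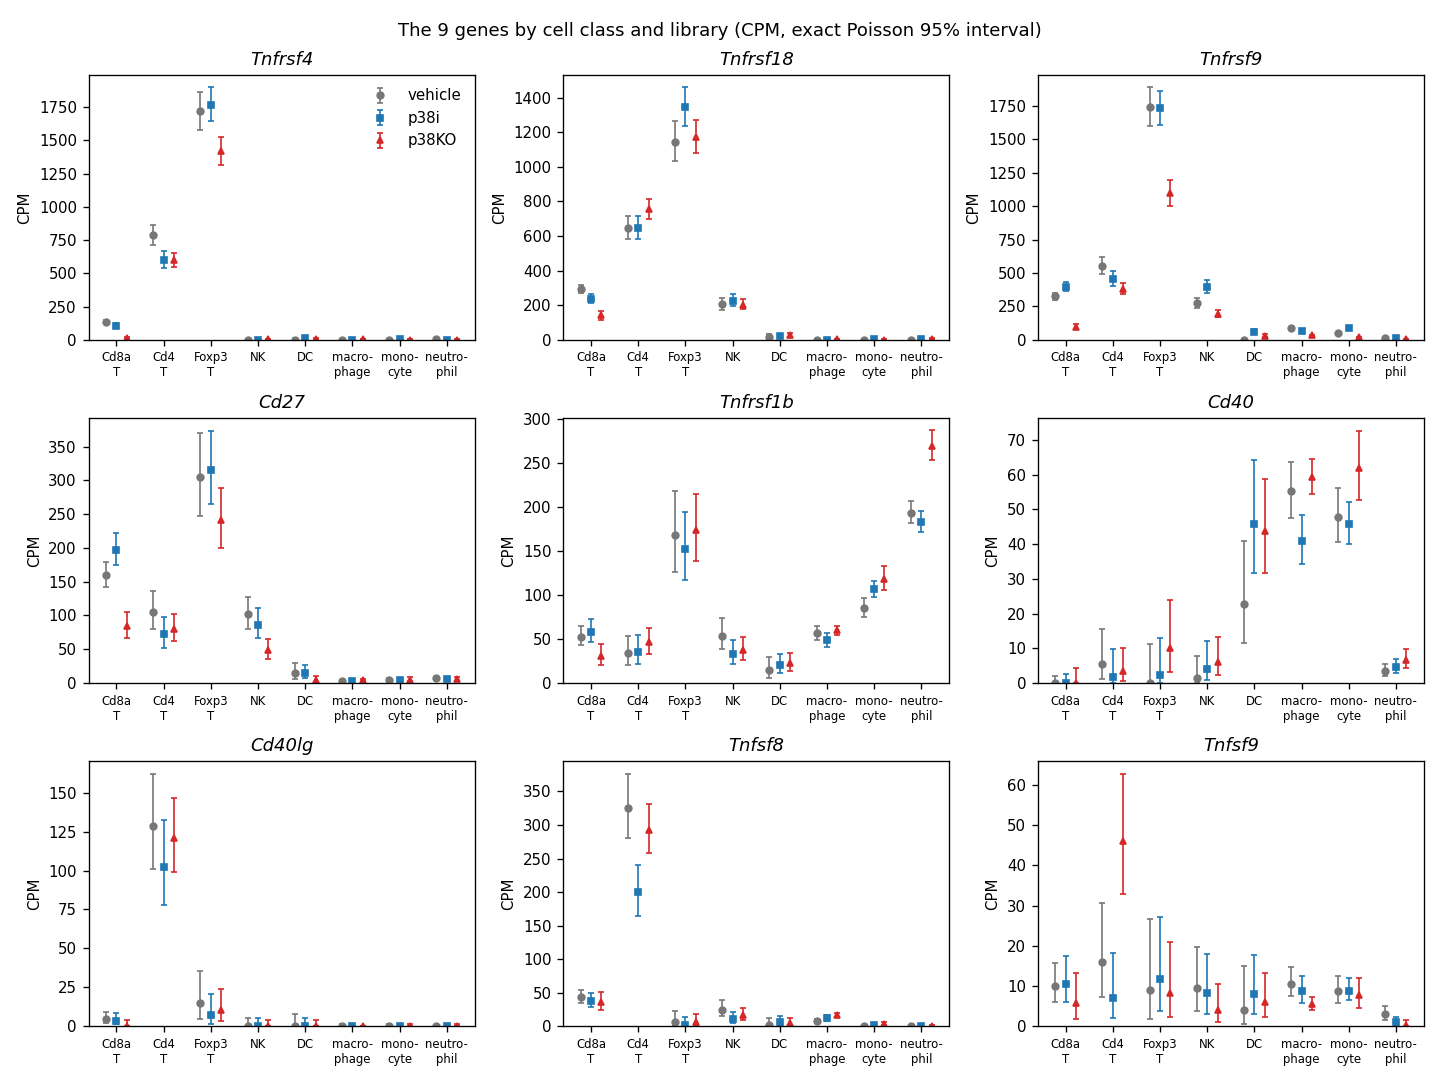
Levels of the 9 genes in CPM (linear axis from 0, with its own range in each panel) in the 8 cell classes, with 1 point per library (vehicle, p38i, p38KO) and exact 95% Poisson intervals for counting error. Tnfrsf4, Tnfrsf18 and Tnfrsf9 were highest in Foxp3 T cells in all 3 libraries, and the p38KO points of Tnfrsf4 and Tnfrsf9 lay below the others in Cd8a T cells.

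**Figure D2:**
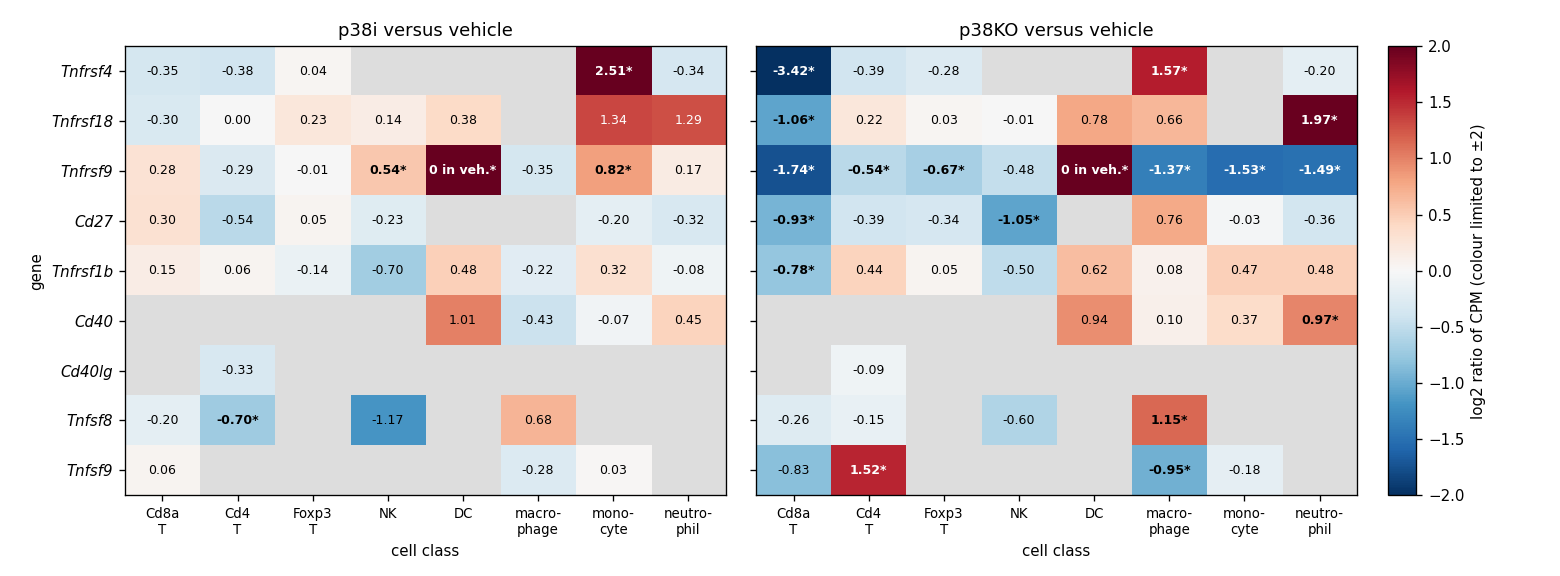
Log2 ratio of CPM to vehicle for each gene and class in p38i (left) and p38KO (right), with color limited to 2 in either direction. Bold values with an asterisk passed the size limit, gray cells had under 20 counts over both libraries, and DC Tnfrsf9 had 0 counts in vehicle.

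In Cd8a T cells, 5 of the 7 genes with enough counts were lower in p38KO than in vehicle, where 5.37% of all genes tested were lower. The median log2 ratio of the 7 was -0.93, beside 0.08 for all genes tested. In p38i none of 7 was past the limit in either direction, and their median was 0.06, as over all genes tested.

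OX40 showed the largest of these differences. Tnfrsf4 stood at 134 CPM in vehicle (95% interval 118 to 151, 251 UMIs), 105 CPM in p38i (88.7 to 123, 149 UMIs) and 12.5 CPM in p38KO (6.24 to 22.4, 11 UMIs). The p38KO level lay far below both others, and the p38i interval overlapped that of vehicle. The log2 ratio to vehicle was -0.35 (-0.65 to -0.05) for p38i and -3.42 (-4.44 to -2.55) for p38KO, a level 10.7-fold lower. Of the 11 p38KO UMIs, 6 came from 1 cell. After every cell was thinned to 1500 UMIs, 10.8% of vehicle, 10.6% of p38i and 1.43% of p38KO Cd8a T cells held a Tnfrsf4 UMI. In neutrophils, which should lack OX40, the thinned share was 0.267%, 0.254% and 0.223%. Before thinning, median depths were 6097, 5431 and 5496.5 UMIs in Cd8a T cells and 2561, 2392 and 2217 in neutrophils, and the Cd8a T shares were 29.7%, 26.4% and 4.29%.

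4-1BB, the costimulator induced on CD8 T cells after antigen contact, was also lowest in p38KO. Tnfrsf9 stood at 327 CPM in vehicle (301 to 354), 398 CPM in p38i (365 to 432) and 97.8 CPM in p38KO (78.2 to 121). The 3 intervals did not overlap, with p38i above and p38KO below vehicle. The log2 ratio was 0.28 (0.12 to 0.45) in p38i, short of the size limit, and -1.74 (-2.08 to -1.41) in p38KO, a level 3.34-fold lower. Thinned shares of cells with a Tnfrsf9 UMI were 27.0%, 34.8% and 7.14%, beside 1.34%, 1.02% and 0.52% in neutrophils.

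GITR and CD27 were lower by less. Tnfrsf18 was at 293 CPM in vehicle, 238 CPM in p38i and 141 CPM in p38KO. Its log2 ratio was -0.30 (-0.50 to -0.10) for p38i and -1.06 (-1.35 to -0.77) for p38KO. Cd27, which supports survival of primed T cells, was at 160, 197 and 84.1 CPM, with log2 ratios of 0.30 (0.06 to 0.54) and -0.93 (-1.32 to -0.56). In p38KO both genes lay below the other libraries, while p38i lay on opposite sides of vehicle for the 2 genes, within the size limit. TNFR2 (Tnfrsf1b) had fewer counts, at 52.7, 58.4 and 30.7 CPM, and its p38KO log2 ratio of -0.78 (-1.45 to -0.15) moved to -0.18 when cells were gated after thinning. Tnfsf8 (43.6, 38 and 36.4 CPM) and Tnfsf9 (10.1, 10.6 and 5.68 CPM) had intervals that overlapped in all libraries. For Tnfsf8 in p38KO this turned on which cells were counted: the log2 ratio was -0.26 for the class, -1.10 (-2.04 to -0.27) for its cells in the main CD8 cluster of an unsupervised clustering, -1.27 (-2.12 to -0.51) for all cells of that cluster and -2.69 with gates after thinning, and the last 3 were past the limit.

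The makeup of the Cd8a T class differed between libraries. Cells with a transcript of Pdcd1, which encodes the checkpoint receptor PD-1, made up 57.1% of the class in vehicle (148 cells), 56.8% in p38i (129 cells) and 31.4% in p38KO (44 cells). Thinned to 1500 UMIs, these shares were 29.3% (23.9 to 35.3), 33.9% (27.8 to 40.5) and 17.9% (11.9 to 25.2), with exact binomial intervals of which that of vehicle overlapped that of p38KO. In neutrophils, 1, 1 and 0 cells held a Pdcd1 UMI after thinning. Tnfrsf4 and Tnfrsf9 were higher in cells with Pdcd1 than without it in vehicle, by 1.66 (1.16 to 2.21) and 1.73 (1.40 to 2.08) on the log2 scale. Within cells holding Pdcd1, the log2 ratio of p38KO to vehicle was -3.53 for Tnfrsf4 (176 against 15.2 CPM), -1.11 for Tnfrsf9 (434 against 202 CPM), -0.96 for Tnfrsf18 and -1.30 for Cd27. Within cells without Pdcd1 it was -2.29 for Tnfrsf4, -1.29 for Tnfrsf9 and -0.85 for Tnfrsf18, and the Cd27 value of -0.32 (-0.86 to 0.20) had an interval that held 0. The 2 Tnfrsf4 values divide the few p38KO UMIs given above, most of them from 1 cell, so their sizes are not compared. So 3 receptors were lower on either side of the split, and Cd27 had a difference in the Pdcd1 cells whose size outside them was not resolved. In p38i, cells without Pdcd1 had Tnfrsf9 at 216 CPM against 131 CPM in vehicle, a log2 ratio of 0.72 (0.30 to 1.15).

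**Figure D3:**
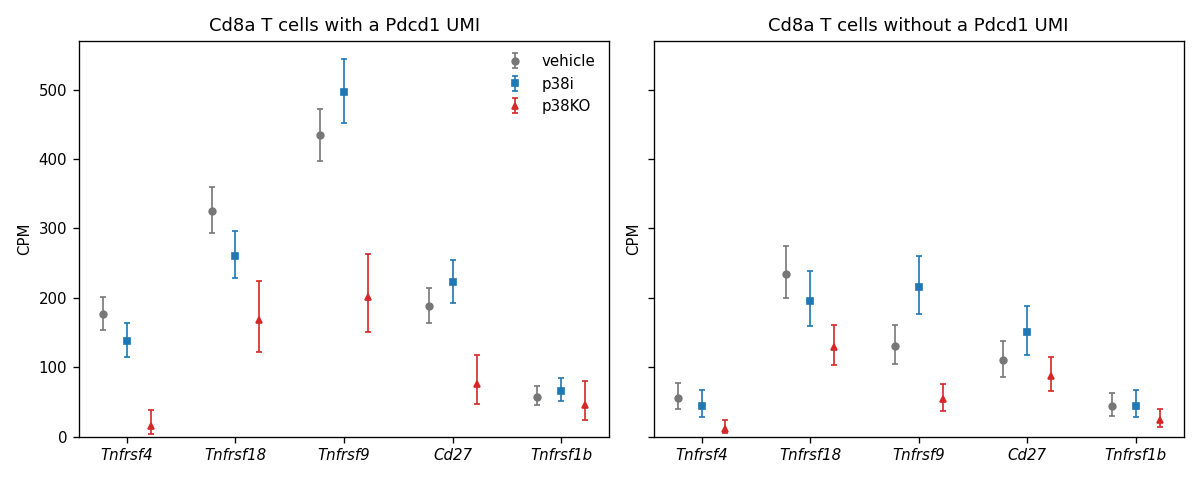
Levels (CPM, linear axis from 0) of 5 receptors in Cd8a T cells with a Pdcd1 UMI (left) and without one (right), by library, with exact 95% Poisson intervals for counting error. Tnfrsf4 in p38KO lay at 15.2 CPM with Pdcd1 and 11.4 CPM without, below vehicle and p38i on both sides.

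The same cells were also grouped by unsupervised clustering that left out the 9 genes and the gate genes. Cd8a T cells in the main CD8 cluster, led by Cd8b1, Klrc1 and Cxcr6, numbered 222, 185 and 110. Among them Tnfrsf4 was at 153, 100 and 15.4 CPM and Tnfrsf9 at 354, 411 and 98.8 CPM, so that the p38KO log2 ratios were -3.31 and -1.84. Tnfrsf4 in p38i had a log2 ratio of -0.61 in these cells, past the size limit. When all 248, 213 and 150 cells of that cluster were taken without the Cd8a gate, Tnfrsf4 was at 141, 113 and 89.8 CPM and its p38KO log2 ratio was -0.65, since 10 of the 82 p38KO UMIs lay in gated Cd8a T cells. T cells of that cluster outside the Cd8a, Cd4 and Foxp3 T classes numbered 8, 15 and 14. Their Tnfrsf4 went the other way, at 89.4, 292 and 240 CPM (6, 20 and 21 UMIs). The log2 ratios were 1.71 (0.34 to 3.31) for p38i and 1.42 (0.07 to 3.02) for p38KO. A small T cell cluster led by the cell-cycle genes Nusap1, Rrm2 and Cenpf held 18, 27 and 17 cells. There the p38KO log2 ratios were above vehicle for Tnfrsf4 (1.27, 0.68 to 1.88), Tnfrsf9 (0.63, 0.17 to 1.11) and Tnfrsf18 (0.57, 0.07 to 1.07). For Cd27 the value was -0.55 (-1.37 to 0.25).

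NF-kB lies downstream of all these receptors, and genes of that pathway were read from a list of 14 adaptors and NF-kB components. That list, too, was chosen with earlier results of these data known. In Cd8a T cells, all 14 had enough counts, and in p38KO 7 were lower and none higher, with a list median of -0.49. Of all genes tested in that class, 5.37% were lower and 6.95% higher, with a median of 0.08. In p38KO neutrophils the same 14 genes had 4 higher (Traf1, Traf3, Birc2 and Tnfaip3) and none lower, where 11.0% of all genes tested were higher. The 7 were Birc2 and Birc3, which encode ubiquitin ligases of the TRAF complex, the subunit genes Nfkb1, Nfkb2 and Relb, and Nfkbia and Tnfaip3, which are themselves NF-kB targets and encode its inhibitors. Tnfaip3 (A20) was at 111 CPM in vehicle, 57.7 CPM in p38i and 29.6 CPM in p38KO. Its log2 ratios were -0.94 (-1.33 to -0.56) and -1.90 (-2.55 to -1.31), and in p38i it was the 1 gene of the 14 past the limit. Nfkbia had a p38KO log2 ratio of -0.91 (156 against 83.0 CPM), Nfkb2 one of -1.11 (48.9 against 22.7 CPM), and the interval of Relb ended at -0.01. An 8-gene list of early response genes that rise during tissue dissociation (Fos, Fosb, Jun, Junb, Egr1, Dusp1, Hspa1a and Hspa1b, chosen after values were seen) summed to 638, 367 and 475 CPM in Cd8a T cells, highest in vehicle. Its part in the NF-kB values was not tested.

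**Figure D4:**
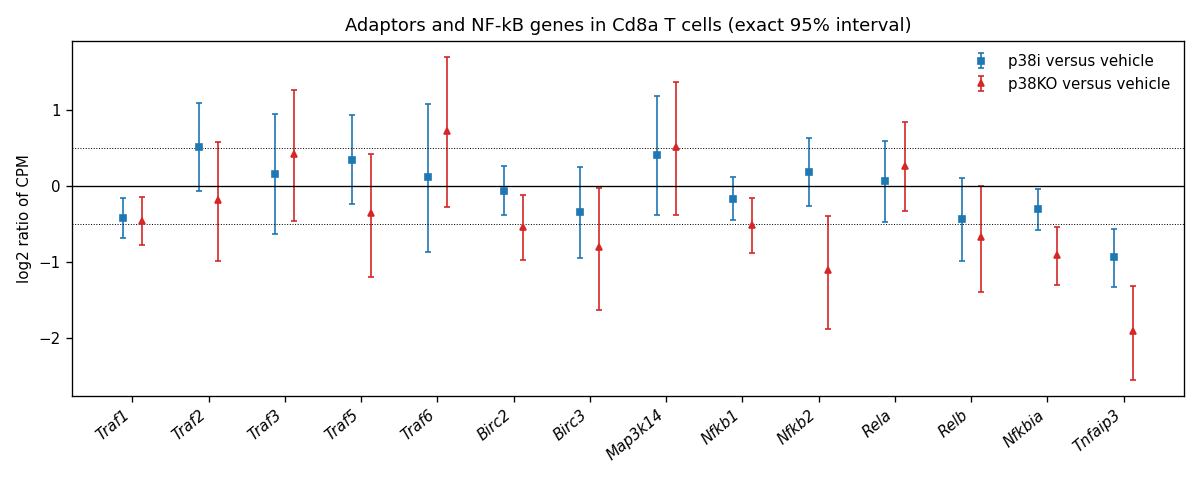
Log2 ratio of CPM to vehicle in Cd8a T cells for 14 adaptor and NF-kB genes in p38i and p38KO, with exact 95% intervals and dotted lines at the size limit of 0.5. In p38KO 7 genes lay below the limit and none above it, and Tnfaip3 was lowest in either comparison.

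Foxp3 T cells, the regulatory compartment, carried the highest levels of OX40, GITR, 4-1BB and CD27 of the 8 classes in every library, each above the next class beyond counting error. Tnfrsf4 stood at 1719, 1768 and 1418 CPM and Tnfrsf18 at 1144, 1344 and 1172 CPM in vehicle, p38i and p38KO. Their log2 ratios to vehicle ranged from -0.28 to 0.23, inside the size limit. Thinned to 1500 UMIs, 87.5%, 80.2% and 82.4% of Foxp3 T cells held a Tnfrsf4 UMI at median depths of 3753.5, 3135.5 and 3980 UMIs.

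Tnfrsf9 was the 1 gene of 5 lower in p38KO Foxp3 T cells, where 3.16% of all genes tested were lower. It was at 1741 CPM in vehicle (1601 to 1889), 1733 CPM in p38i (1610 to 1862) and 1096 CPM in p38KO (1005 to 1193). Vehicle and p38i overlapped and p38KO lay below both, with log2 ratios of -0.01 (-0.17 to 0.15) and -0.67 (-0.84 to -0.50). Among Foxp3 T cells of the regulatory cluster alone the p38KO value was -0.60. Within each library, Foxp3 T cells with the proliferation gene Mki67 had less Tnfrsf4 (log2 difference -0.72, -0.71 and -0.76) and less Tnfrsf9 (-0.74, -0.77 and -0.93) than those without. Cd27 was at 304, 316 and 241 CPM and Tnfrsf1b at 167, 152 and 173 CPM, with no value past the limit.

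In Cd4 T cells, Tnfrsf4 was at 785, 603 and 599 CPM and Tnfrsf18 at 647, 645 and 755 CPM, all within the size limit for the whole class. Tnfrsf4 was at -0.53 on the log2 scale, past the limit, without the bound on myeloid transcripts for p38i and with stricter gates for p38KO. Tnfrsf9 was at 554, 454 and 381 CPM, and its p38KO log2 ratio of -0.54 (-0.77 to -0.31) was the 1 lower value of 8 genes, where 3.53% of all genes tested were lower. These cells fell mostly into 2 clusters, whose shares were alike in vehicle and p38i and differed in p38KO. A cluster led by S1pr1, Tcf7 and Lef1 held 64.0%, 65.2% and 43.1% of the class. A second, led by Lgals7, Tnfsf11 and Ccl1, held 23.4%, 23.7% and 49.4%. In the first, whose leading genes mark naive and memory cells, Tnfrsf9 was at 406, 142 and 73.5 CPM, with log2 ratios of -1.52 and -2.47. All cells of that cluster, taken without the Cd4 gate, had Tnfrsf9 at 251, 167 and 114 CPM, with log2 ratios of -0.59 and -1.14. In the second it was at 772, 791 and 500 CPM, with a p38KO log2 ratio of -0.63. The class total therefore mixed 2 kinds of cells, in shares that differed in p38KO. The p38i value of -0.29 for the whole class stood beside -1.52 in the first cluster and 0.03 in the second. Tnfrsf4 and Tnfrsf18 were also lower in p38i among the Cd4 T cells of the first cluster, with log2 ratios of -0.63 (-0.95 to -0.30) and -0.59 (-0.92 to -0.26), while all cells of that cluster without the Cd4 gate gave -0.11 and -0.17, inside the limit.

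**Figure D5:**
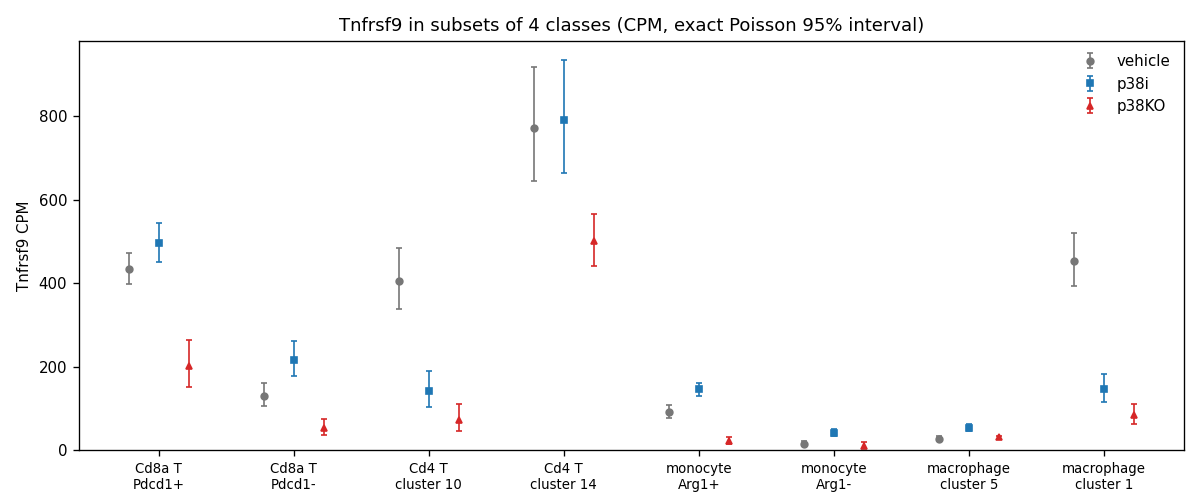
Tnfrsf9 level (CPM, linear axis from 0) by library in Cd8a T cells with or without a Pdcd1 UMI, Cd4 T cells of clusters 10 (led by S1pr1) and 14 (led by Lgals7), monocytes with or without an Arg1 UMI, and macrophages of cluster 5 (macrophages) and cluster 1 (Arg1 monocytes), with exact 95% Poisson intervals. By point value alone, p38KO was the lowest of the 3 in 7 of these 8 subsets, and in cluster 5 macrophages vehicle was lowest, at 27.7 CPM. For monocytes without Arg1 the interval of the p38KO ratio to vehicle included no change. Among cells not shown are the T cells of cluster 18, led by cell-cycle genes, where the p38KO log2 ratio was 0.63 (0.17 to 1.11). Also not shown are the DC of cluster 13, where it was 0.17 (-0.45 to 0.81).

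NK cells carried GITR, 4-1BB and CD27. Tnfrsf18 was nearly level at 205, 226 and 203 CPM. Tnfrsf9 was at 273, 396 and 196 CPM, and its log2 ratio was 0.54 (0.27 to 0.80) for p38i and -0.48 (-0.77 to -0.19) for p38KO. It was the 1 higher value of 5 in p38i, where 3.12% of all genes tested were higher, and it fell short of the limit under 4 alternatives, at 0.19 to 0.48. Cd27, whose loss accompanies NK cell maturation, was at 102, 86.4 and 49.0 CPM, and its p38KO log2 ratio of -1.05 (-1.61 to -0.51) was the 1 lower value of 5, where 7.02% of all genes tested were lower. The p38KO class also held less of the NK markers (8146, 8675 and 5256 CPM) and more of the mast cell markers (54.9, 48.0 and 175 CPM), and 96.6%, 95.7% and 90% of its cells lay in NK clusters. All cells of the main NK cluster gave a Cd27 log2 ratio of -0.92 (-1.35 to -0.49). The part of this makeup in the Cd27 value was not tested. Tnfrsf4 had 0, 0 and 3 UMIs in NK cells.

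4-1BB transcripts were also found in myeloid cells, monocytes among them. Tnfrsf9 stood at 50.4 CPM in vehicle (42.9 to 58.7), 89.1 CPM in p38i (81.1 to 97.7) and 17.4 CPM in p38KO (12.6 to 23.5). The 3 intervals did not overlap, and the log2 ratios lay on opposite sides of vehicle, at 0.82 (0.56 to 1.09) and -1.53 (-2.05 to -1.04). In p38i it was 1 of 2 higher values among 7 genes, where 3.73% of all genes tested were higher, and in p38KO the 1 lower value of 5, where 2.45% were lower. Classes named by clustering gave 0.43 in p38i, short of the limit. Monocytes with Arg1, which encodes arginase and marks suppressive myeloid cells, held most of the transcript, at 91.4, 145 and 22.5 CPM, with log2 ratios of 0.67 and -2.02. Those without Arg1 were at 15.03, 42.2 and 10.5 CPM, with log2 ratios of 1.49 (0.87 to 2.16) and -0.52 (-1.68 to 0.55). Neutrophil markers in the monocyte class summed to 8433 CPM in vehicle, and Tnfrsf9 in neutrophils themselves was at 11.7, 13.1 and 4.16 CPM. The other p38i value was Tnfrsf4 (2, 18 and 2 UMIs), where 12 of the 18 UMIs came from 1 cell and the value without it was 1.93 and no longer past the limit.

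The macrophage values of Tnfrsf9 turned on which cells were counted. By the C1qa gate, Tnfrsf9 was at 86.7, 68.0 and 33.6 CPM, with log2 ratios of -0.35 and -1.37 (-1.61 to -1.13). Of the 294 vehicle UMIs, 207 lay in 30 cells (17.6% of the class) that clustered with the Arg1 monocytes. In the gated cells of the macrophage cluster proper the levels were 27.7, 53.3 and 31.1 CPM, and the log2 ratios turned to 0.94 in p38i and 0.17 in p38KO. Cells with the macrophage mannose receptor gene Mrc1 had less Tnfrsf9 than those without in each library, by -2.32, -2.88 and -1.89 on the log2 scale. The lower p38KO value is thus reported for the gate alone.

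DC had no Tnfrsf9 UMI in 36 vehicle cells, 45 UMIs in 70 p38i cells and 31 UMIs in 69 p38KO cells. Against a floor of 3 counts over the vehicle class (6.22 CPM), the levels of 60.7 and 31.5 CPM were 9.76-fold and 5.06-fold that floor. The floor is a set value, so these folds are not lower bounds. These were the 1 higher value of 4 genes in p38i (5.65% of all genes tested were higher) and in p38KO (5.77% higher). The p38i value no longer counted as higher with gates lowered to 1 UMI or with at least 100 counts required. The p38KO value was lost under those 2 settings, with stricter gates, with gates after thinning and without the cell richest in Tnfrsf9. Cells with Ccr7, the mark of mature migratory DC, numbered 2, 11 and 7, and held 34 of the 45 and 29 of the 31 UMIs. With 2 such cells in vehicle, no level of mature DC could be given there. DC named by clustering numbered 93, 140 and 127 cells and had a p38KO log2 ratio of -0.10. The DC cluster led by Plet1, Sept3 and Xcr1 held Tnfrsf9 in vehicle too. Its log2 ratios were 1.08 (0.50 to 1.68) for p38i and 0.17 (-0.45 to 0.81) for p38KO. The vehicle value of 0 is thus reported for the Flt3 gate alone.

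CD40 had its highest levels in the antigen-presenting classes. Cd40 was at 55.2, 40.8 and 59.2 CPM in macrophages, 47.9, 45.7 and 62.0 CPM in monocytes and 22.8, 45.9 and 43.7 CPM in DC, and it had no UMI in Cd8a T cells of any library. Neighbors in the order of these 3 classes were not separated beyond counting error in any library. In vehicle, macrophages and DC were not neighbors, and their intervals did not overlap. Vehicle DC were also not separated from Cd4 T cells, the next class in the order. The DC log2 ratios of 1.01 (-0.01 to 2.14) and 0.94 (-0.04 to 2.04) had intervals that held 0. DC with Ccr7 had more Cd40 than those without, with a log2 difference of 1.91 (0.76 to 2.99) within p38i and 3.43 (2.49 to 4.36) within p38KO. Monocytes with Arg1 had less Cd40 than those without in each library, by -0.75, -0.71 and -0.88.

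TNFR2, which binds membrane TNF, was the receptor of neutrophils. Tnfrsf1b stood at 193 CPM in vehicle (181 to 206), 183 CPM in p38i (171 to 195) and 269 CPM in p38KO (252 to 287). Vehicle and p38i overlapped and p38KO lay above both, with a log2 ratio of 0.48 (0.35 to 0.61), just inside the limit of 0.5, where the median of all genes tested in neutrophils was 0.14. Neutrophils with Cxcr2, the chemokine receptor of mature circulating cells, had less Tnfrsf1b than those without (-0.54, -0.59 and -0.64), and those with Ccl3 had more (0.54, 0.46 and 0.59). Neutrophils equaled Foxp3 T cells within counting error in vehicle and p38i and stood above them in p38KO. Of 6 genes in p38KO neutrophils, 2 were higher, where 11.0% of all genes tested were higher: Tnfrsf18 (7, 18 and 21 UMIs, 1.97 with an interval of 0.68 to 3.45) and Cd40 (16, 23 and 24 UMIs, 0.97 with a lower bound of 0.00). The first was 1.02 and not past the limit in classes named by clustering, and the second was lost under 7 alternatives. Tnfrsf9 was the 1 lower (55, 65 and 15 UMIs, log2 ratio -1.49, or -0.66 and not past the limit with gates after thinning), where 2.53% of all genes tested were lower.

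Among ligands, CD40 ligand belonged to Cd4 T cells. Cd40lg was at 129, 103 and 121 CPM there (72, 58 and 105 UMIs), with overlapping intervals. The log2 ratio was -0.33 (-0.85 to 0.19) for p38i and -0.09 (-0.54 to 0.36) for p38KO. In no other class did it exceed 9 UMIs. In the cluster led by S1pr1 and Tcf7, Cd40lg was at 130, 58.7 and 100 CPM, and its p38i log2 ratio of -1.15 was past the limit, unlike that of the whole class with the main gates. The p38i value of the whole class was past the limit at -0.56 without the bound on myeloid transcripts and at -0.80 with gates after thinning.

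CD30 ligand was also highest in Cd4 T cells. Tnfsf8 was at 325 CPM in vehicle (280 to 376), 200 CPM in p38i (165 to 240) and 293 CPM in p38KO (258 to 331). The p38i library lay below both others, with a log2 ratio of -0.70 (-1.06 to -0.36), and it was the 1 lower value of 7 genes, where 3.41% of all genes tested were lower. In p38KO the class value was -0.15 (-0.43 to 0.13). In the cluster led by S1pr1 and Tcf7, the log2 ratios were -0.62 (-1.26 to 0.01) and -0.01, neither past the limit. In the cluster led by Lgals7 and Ccl1, Tnfsf8 was at 748, 407 and 388 CPM, with log2 ratios of -0.88 and -0.95 in a cluster that made up 23.4% of the vehicle class and 49.4% of the p38KO class. Macrophages held Tnfsf8 at 7.38, 11.8 and 16.3 CPM, and the p38KO log2 ratio was 1.15 (0.53 to 1.82). Gated macrophages of the macrophage cluster gave 0.96 (0.10 to 1.87) in p38i and 1.42 in p38KO, both past the limit. All cells of that cluster, taken without the C1qa gate, gave less, at 0.09 (-0.62 to 0.80) and 0.58 (0.04 to 1.16).

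4-1BB ligand, best known from activated antigen-presenting cells, was low throughout. Tnfsf9 in macrophages was at 10.6, 8.77 and 5.48 CPM, with a p38KO log2 ratio of -0.95 (-1.60 to -0.29), or -0.72 and short of the interval rule with gates after thinning. With Tnfrsf9 it made the 2 lower values of 8 genes in p38KO macrophages (3.18% of all genes tested were lower). The 2 higher ones (9.11% higher) were Tnfsf8 and Tnfrsf4, where 17 of the 32 Tnfrsf4 UMIs came from 1 cell and classes named by clustering gave -0.32. In Cd4 T cells Tnfsf9 had 9, 4 and 40 UMIs, and its p38KO log2 ratio of 1.52 (0.45 to 2.75) was the 1 higher value of 8 (7.14% of all genes tested were higher). It was 1.10 under stricter gates and 0.07 when cells were gated after thinning, neither past the limit. Cd4 T cells of the cluster led by Lgals7 and Ccl1 held 7, 1 and 35 UMIs in 26, 32 and 79 cells. Their levels were 41.6, 5.73 and 68.6 CPM, and the p38KO log2 ratio of 0.72 (-0.47 to 2.14) had an interval that held 0.

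The direct partners of the 9 genes were sparse. Tnfsf4 (OX40 ligand) had 9, 13 and 1 UMIs in Cd8a T cells and 1, 4 and 10 in NK cells, and at most 1 in every other class. Tnfsf18 (GITR ligand) was seen in macrophages alone of the 8 classes, with 2, 0 and 4 UMIs. Cd70, the ligand of CD27, had 2, 10 and 21 UMIs in Cd4 T cells, with a p38KO log2 ratio of 2.76 (0.73 to 5.90). Tnfrsf8 (CD30), the receptor of Tnfsf8, had 6, 4 and 8 UMIs in Foxp3 T cells. Tnf was at 21.8, 18.7 and 53.5 CPM in neutrophils, with a p38KO log2 ratio of 1.29 (0.94 to 1.65), and at 5.90, 15.1 and 16.4 CPM in macrophages, with log2 ratios of 1.36 and 1.48. In Cd4 T cells Tnf was at 129, 47.7 and 68.0 CPM, with 62 of the 72 vehicle UMIs in 1 cell.

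Other family members were read from lists of 17 receptors, 14 ligands and the 14 adaptor and NF-kB genes. Past the limit on the same side in both comparisons were Tnfsf10 (TRAIL), higher in Cd8a T cells (51.1, 88.7 and 93.2 CPM) and in Foxp3 T cells (18.3, 49.1 and 49.0 CPM), and Tnfaip3, lower in all 3 T cell classes and in NK cells (129, 35.7 and 38.8 CPM). In neutrophils Tnfaip3 lay on opposite sides of vehicle, at 71.0, 48.5 and 127 CPM with log2 ratios of -0.55 and 0.83, and in monocytes it was higher in p38KO (0.60). In NK cells Ltb (lymphotoxin beta) was higher, at 606, 867 and 870 CPM, and Fasl (Fas ligand) lower, at 231, 130 and 139 CPM. Rela was higher in Foxp3 T cells (11, 37 and 38 UMIs). In DC, Traf2 (3, 22 and 26 UMIs), Birc2 (16, 55 and 71 UMIs) and Relb (11, 52 and 58 UMIs) were higher. The part of DC with Ccr7, which were few in vehicle, in those DC values was not tested. In macrophages Ltb and Map3k14, the kinase of noncanonical NF-kB signaling, were higher. Tnfrsf11a (RANK) was lower in monocytes (60.9, 38.04 and 43.0 CPM) and Ltbr higher in neutrophils (19.5, 27.8 and 28.9 CPM). In p38KO Cd4 T cells, 5 of 8 other ligands with enough counts were higher (Lta, Ltb, Cd70, Tnfsf10 and Tnfsf11), where 7.14% of all genes tested were higher. Tnf was lower there, where 3.53% of all genes tested were lower, but most of its 72 vehicle UMIs came from a single cell. The cluster led by Lgals7, Tnfsf11 and Ccl1 made up 23.4% of the vehicle class and 49.4% of the p38KO class. The part of that cluster in these ligand values was not tested. In p38KO macrophages, 5 of 8 other ligands were higher (Tnf, Ltb, Tnfsf12, Tnfsf13b and Tnfsf15) and none lower, where 9.11% of all genes tested were higher. The 8-gene early response list was highest in vehicle in every class (6876, 4342 and 6631 CPM in neutrophils, 1060, 507 and 699 CPM in NK cells), and its part in these values was not tested.

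The genes most like each member over 24 values (8 classes in 3 libraries) were named by Pearson's r of log2(CPM + 10), as a description in which libraries are shared between points. Tnfrsf4 was closest to Penk and Cd5 (both 0.98) and Izumo1r (0.97), Tnfrsf18 to Cers4 and Cd28 (0.98) and Il27ra (0.97), Tnfrsf9 to Rora (0.93), Cers4 and Tpp2 (0.91), and Cd27 to Cers4, Gimap7 and Tox (0.97). Tnfrsf1b was closest to Glrx (0.90), Alkbh5 (0.89) and N4bp1 (0.88), and Cd40 to Cxcl16 and Sdc3 (0.97) and Ifi30 (0.96). Cd40lg was closest to Lgals7 (0.93), Csf2 (0.88) and Tnfsf11 (0.87), Tnfsf8 to Csf2 (0.91), Ccl1 (0.88) and Lta (0.85), and Tnfsf9 to Il2 (0.80), Uhrf2 (0.73) and March2 (0.72). Among the 9 genes themselves, the closest pair was Tnfrsf18 and Cd27 (0.95).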

How the data were processed

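Single-cell RNA-seq libraries of live CD45+ cells were made by the authors with 10x Genomics 3' chemistry after cold protease digestion. Per the file headers and the submitters' processing notes, reads were aligned to mm10 and counted with Cell Ranger 6.0.0, and R 4.2.1 and Seurat 5 were used downstream. The deposited values are raw UMI counts per gene and cell in filtered matrices, before any removal of doublets or free RNA, and no normalized values or cell annotation were used here.

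The authors' barcodes (4588, 6343 and 5212) were reduced to cells with at least 1500 UMIs, at least 300 genes and at most 20% mitochondrial UMIs, which kept 83.3%, 75.6% and 74.0%. No doublet caller was run, but T and NK cells with more than 1 transcript of C1qa, Fn1 and Csf3r were left out. Macrophages needed 3 C1qa, monocytes 3 Fn1, neutrophils 2 Csf3r UMIs and the other classes 1 UMI of their gate gene. The main values used the 2570, 2969 and 2759 kept cells that lay in the 8 classes. Cells outside these classes entered only the values for whole clusters, for classes named by clustering and for some other alternatives. Counts were summed per class and library and scaled to CPM. As each group was 1 pooled library, differences were described by ratios with exact 95% intervals and a size limit of 0.5 (log2), with 0.5 standing in for a count of 0, and shares by exact Clopper-Pearson intervals. A share of cells was compared after thinning each cell to 1500 UMIs. The alternatives were other gates, gates after thinning, no cell filter, median-ratio scaling, a limit of 1, at least 100 counts and classes from Leiden clusters (2000 variable genes without the 9 genes, gate genes and family lists, 30 components, 15 neighbors, resolution 1). The naming rule of the clusters was relaxed after they were seen: another class now needs at least 2 markers in the top 10 genes and more than the cluster's own. Leaving out the cell richest in a gene, and the cells of single clusters, were added after values were seen. Genes named beyond the 9 were the partners Tnfsf4, Tnfsf18, Cd70, Tnfrsf8 and Tnf, family genes past the limit on the same side in both comparisons, and the 3 most like genes per member. Family genes outside these, named for p38KO Cd8a T cells, Cd4 T cells and macrophages and for neutrophils and monocytes, were chosen after their values were seen. The members and lists were chosen with earlier results of these data known. Scripts were tested on simulated data. Python 3.11.15, scanpy 1.11.5, leidenalg 0.10.2, scipy 1.17.1 and pandas 2.3.3 were used.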

Additional observations from a re-analysis of the deposited data

Results flagged for a closer look

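In p38KO against vehicle, 4 genes were past the size limit above vehicle in some cell classes and below it in others. None of these differences between classes was tested, since each class had 1 library per group. Tnfrsf4 had a log2 ratio of 1.572 in macrophages and -3.417 in Cd8a T cells. Tnfrsf18 was at 1.973 in neutrophils and -1.056 in Cd8a T cells. Tnfrsf9 was at 4.924 in DC, where vehicle had 0 counts and the value rests on a stand-in of 0.5, and at -1.74 in Cd8a T cells, -0.5392 in Cd4 T cells, -0.6675 in Foxp3 T cells, -1.37 in macrophages, -1.531 in monocytes and -1.486 in neutrophils. Tnfsf9 was at 1.518 in Cd4 T cells and -0.9539 in macrophages. The macrophage value of Tnfrsf4, the neutrophil value of Tnfrsf18 and the DC value of Tnfrsf9 rest on 4, 7 and 0 UMIs in vehicle and 32, 21 and 31 UMIs in p38KO.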

How the results depend on the processing

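The lower Tnfrsf4, Tnfrsf18, Tnfrsf9 and Cd27 in p38KO Cd8a T cells stayed past the limit of 0.5 under every gate, filter, scaling and class alternative that kept the gate or its Leiden class, with log2 ratios of -4.44 to -2.85, -1.21 to -0.91, -1.94 to -1.51 and -1.36 to -0.91. The Leiden class of Cd8a T cells applied the same Cd8a, Cd4 and Foxp3 rules within T cell clusters, so it was not an independent definition. All cells of the main CD8 cluster, without the gate, gave -0.65, -0.77, -1.40 and -1.12. With a limit of 1, Cd27 fell short. The p38i count of lower values (1) became 2 with stricter gates, 3 without the limit on myeloid transcripts, 4 with gates after thinning, 2 with Leiden classes and 0 with a limit of 1. The p38i count of higher values (4) became 7 with gates after thinning, 2 with a limit of 1 and 2 with at least 100 counts. The p38KO count of higher values (6) became 3 with Leiden classes and 1 with at least 100 counts, and that of lower values (12) became 7 with a limit of 1. A like count did not always hold the same values. Gates after thinning kept 3 of the 4 higher values in p38i, and 2 of the 6 higher and 9 of the 12 lower values in p38KO. Leiden classes kept 2 of the 4 higher values in p38i, and 2 of the 6 higher and 11 of the 12 lower values in p38KO. With gates after thinning, the log2 ratio turned for Tnfrsf9 in p38i macrophages (0.62), Tnfsf9 in p38i monocytes (-1.48) and Tnfrsf4 in p38KO neutrophils (1.52). With Leiden classes it turned for Tnfrsf9 in p38i macrophages (1.17), p38i neutrophils (-1.55), p38KO DC (-0.10) and p38KO macrophages (0.27), and for Tnfrsf4 in p38KO macrophages (-0.32). In macrophages of the macrophage cluster, Tnfrsf9 turned in p38i (0.94) and p38KO (0.17). The cause was not tested. No paired analysis was possible because each group was 1 library. Depth limited values under 20 counts, and variation between mice was not measured.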
